A study of Mus musculus with 20 samples.

Results

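Liver transcripts of male CD-1 mice given phenobarbital for 90 days were compared with those of vehicle mice of the same duration, over all genes that the arrays name and then by enzyme family and pathway. The comparison used 10 of the 20 arrays of the series, the 5 labelled PB at 90 days and the 5 labelled CMC at 90 days, chosen by their titles. CMC stands for 0.5% methylcellulose 15, the vehicle, and PB for phenobarbital sodium at 80 mg/kg/day. Both groups were dosed by mouth once a day at 10 mL/kg, and the left lateral liver lobe was taken on the day after the last dose and hybridised, as total RNA, to Affymetrix 3' expression arrays. The other 10 arrays are the same 2 treatments at 28 days. CD-1 is an outbred stock, so the mice of a group differ in genotype, and the design holds males only, 1 dose and 1 lobe; the age of the mice is not among the labels used here. The arrays of a group are numbered 1 to 5 and are called mice here; p-values measure the spread between these samples.

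Phenobarbital activates the constitutive androstane receptor (CAR), a nuclear receptor of hepatocytes encoded by Nr1i3, without binding to it: the drug blocks signalling from the epidermal growth factor receptor, and CAR then moves into the nucleus and binds DNA as a partner of the retinoid X receptor. The classical targets of CAR are enzymes of drug metabolism, which work in sequence: cytochromes P450 oxidise a compound, transferases attach sulfate, glucuronate or glutathione to it, and transporters move the product out of the cell. In rodents, long treatment with phenobarbital also enlarges the liver and promotes liver tumours.

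Values are log2 RMA intensities, so a difference of 1 unit is a doubling. Group values are means ± SD with n = 5, and each change is the PB mean less the CMC mean ± the standard error (SE) of a linear model fitted in limma. A gene was called at a Benjamini-Hochberg adjusted p under 0.05 over all genes tested. Arrays give no counts, so the number of mice sets the precision. Intensities cannot be compared between genes, and in whole liver fewer cells of a type and less RNA per cell cannot be told apart. PB mouse 3 stood apart, with a score of -65.2 on the first principal component of the 20 arrays against -20.9 to 44.2 in the other 9 arrays of 90 days. Its mean level of 7 measured hepatocyte markers was 13.5, below the other PB mice, which reached 14.3, and below the vehicle mice at 14.1 to 14.2. Where leaving it out turned the direction of a list's median or moved the median by over 1.5 times, that value is given too.

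Of 15623 genes tested, 21 were called: 20 were higher under phenobarbital, 0.128% of the genes tested, and 1 was lower, 0.0064%. In all 21 the 5 treated livers lay outside the range of the 5 vehicle livers. Such separation was seen for 97 genes on the higher side (0.621%) and 69 on the lower side (0.442%). At an unadjusted p under 0.05, 554 genes were higher (3.55%) and 433 lower (2.77%), together 987 (6.32%). This last count was 2469 without PB mouse 2, 592 without PB mouse 4 and 617 without vehicle mouse 4. Above 0 stood 8689 changes, 55.6% of the genes tested, with a median of 0.03. Counts by family and pathway below are to be read against these shares. Without PB mouse 3 the median was 0.00, and 26 genes were called, the 21 together with Abcc4, Cyp2d12, Gstm3, Prom1 and Sult1d1, all 5 of them higher.

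The raised genes comprised P450 enzymes of the Cyp2b and Cyp2c subfamilies (7 genes), a sulfotransferase, a carboxylesterase and 11 genes outside drug metabolism. Meig1 exceeded the 25th percentile of the array, used here as a proxy for background, on 0 of 5 vehicle arrays, and Nebl, Sult1e1, Cyp2c65 and Pnliprp1 on fewer than 5. For these 5 genes the vehicle level is near background, and RMA compresses differences there, so the size of their change is not exact. A total of 13 genes stayed called when any 1 of the 10 arrays was left out: Ces2a, Cyp2b10, Cyp2c37, Cyp2c54, Cyp2c55, Cyp2c65, Gm10419, Meig1, Nebl, Orm3, Sult1e1, 4931406C07Rik and 9030619P08Rik. The other 8, namely Csad, Cyp2b13, Cyp2c50, Lect2, Lrrc24, Pnliprp1, Serpinb1a and Wdr18, were each lost in at least 5 of the 10 removals, with adjusted p up to 0.129. The fewest calls with 1 array left out were 13, without PB mouse 4. Without vehicle mice 4 and 5 together, a removal chosen after the values were seen, 7 genes were called, all among the 21: Ces2a, Cyp2b10, Cyp2c54, Cyp2c55, Nebl, Orm3 and Sult1e1.

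**Figure D1:**
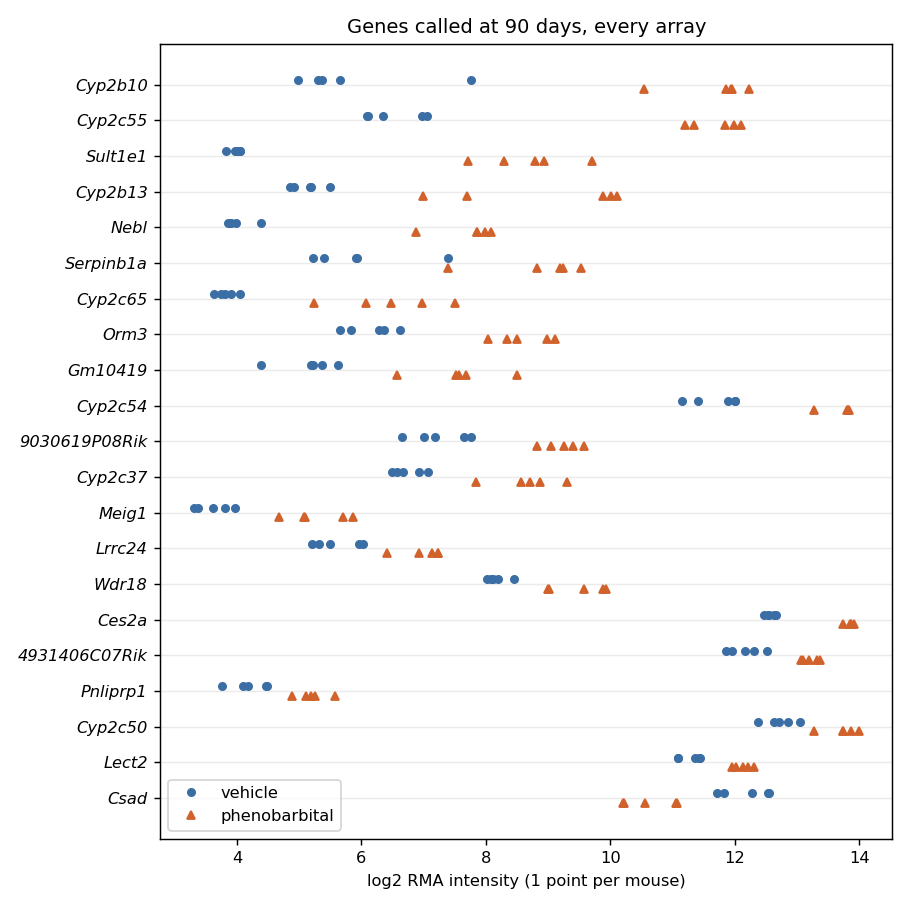
The log2 RMA intensity of each of the 21 called genes (one row per gene, ordered by change) is plotted for every mouse, with circles for the 5 vehicle arrays and triangles for the 5 phenobarbital arrays. The triangles lie to the right of all circles in 20 rows and to the left in the row of Csad; in the row of Serpinb1a the groups nearly touch at 7.40.

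Cyp2b enzymes oxidise many drugs and steroids, and Cyp2b10 is the transcript most often used as a readout of CAR in mice. The subfamily was searched for sequence it shares, because its 3 tested genes are neighbours on chromosome 7 and had higher means under phenobarbital. Neighbours here are genes that follow each other in a row of protein-coding genes of the named families. Genes of other families were left out of such rows. The 250 bases before the annotated start of each gene are given here from RefSeq on GRCm38.p6, plus strand, with the hexamers AGGTCA or AGTTCA, on either strand, in capitals. These hexamers are the short elements that nuclear receptors of the CAR type recognise, usually as a pair.
Cyp2b10 (chr7:25897408-25897657): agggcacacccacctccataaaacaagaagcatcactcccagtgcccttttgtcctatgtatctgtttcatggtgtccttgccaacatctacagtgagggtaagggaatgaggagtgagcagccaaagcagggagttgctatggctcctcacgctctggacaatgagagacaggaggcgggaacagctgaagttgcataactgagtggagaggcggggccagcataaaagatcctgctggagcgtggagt
Cyp2b13 (chr7:26061245-26061494): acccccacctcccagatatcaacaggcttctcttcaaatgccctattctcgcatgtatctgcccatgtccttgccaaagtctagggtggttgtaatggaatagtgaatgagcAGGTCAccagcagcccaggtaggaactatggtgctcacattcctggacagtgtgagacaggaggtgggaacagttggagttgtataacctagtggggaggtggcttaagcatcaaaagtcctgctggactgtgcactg
Cyp2b9 (chr7:26173159-26173408): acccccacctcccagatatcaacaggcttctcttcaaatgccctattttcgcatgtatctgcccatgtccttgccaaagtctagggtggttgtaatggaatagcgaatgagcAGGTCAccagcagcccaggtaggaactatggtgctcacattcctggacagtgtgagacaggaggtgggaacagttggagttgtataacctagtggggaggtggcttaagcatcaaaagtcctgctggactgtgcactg

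The windows of Cyp2b13 and Cyp2b9 were identical at 248 of 250 bases (99.2%), and each was 75.8% identical to that of Cyp2b10 over 240 aligned bases. The known phenobarbital-responsive enhancer of Cyp2b10 lies further upstream, outside these windows. Over the 27025 genes with a RefSeq window of this length, 26.7% held either hexamer. Of the 20 raised genes, 16 had a window and 7 of these held either hexamer, and 0 held them as a direct repeat 4 bases apart, which 0.0259% of all windows did. These are matches of letters and say nothing on binding.

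Cyp2b10 read 7.76, 4.98, 5.31, 5.66 and 5.37 in vehicle mice 1 to 5 and 11.93, 11.86, 10.54, 11.96 and 12.23 in PB mice 1 to 5. Every treated liver lay well above the highest vehicle liver, that of vehicle mouse 1, and PB mouse 3 was the lowest of the treated. The mean rose from 5.82 ± 1.11 to 11.70 ± 0.67, a change of 5.88 ± 0.48 or 59.1-fold (adjusted p = 9.9e-05). All 3 probe sets of the gene rose, by 5.88, 5.82 and 4.62 units when probe sets were tested singly. The set at 5.88, which was the one used, and that at 5.82 are of the _s_at kind, which can detect several similar transcripts. The set at 4.62 is not of that kind, so the 59.1-fold rise rests on an _s_at set.

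Cyp2b13 and Cyp2b9 are better known from female mouse liver. Cyp2b13 read 5.17, 5.20, 4.85, 5.49 and 4.92 in the vehicle mice and 10.01, 7.70, 6.99, 10.11 and 9.89 in the PB mice. The treated livers split, with PB mice 2 and 3 below the other 3, yet all stood above the vehicle livers, and the mean rose by 3.82 ± 0.55 or 14.1-fold (adjusted p = 0.0157). Cyp2b9 read 4.84, 9.13, 6.94, 4.51 and 4.70 in the vehicle mice and 9.78, 8.34, 6.73, 9.76 and 10.55 in the PB mice. Vehicle mouse 2 was as high as the treated livers for Cyp2b9, the groups overlapped, and the difference of 3.01 ± 0.91 missed the threshold (adjusted p = 0.694). Near-identical genes can share probe signal, which was not tested for the Cyp2b probe sets. In vehicle mouse 2 the Cyp2b13 probe set read 5.20 and that of Cyp2b9 read 9.13.

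In the Cyp2c subfamily, whose enzymes oxidise drugs, fatty acids and steroids, 5 of 11 genes tested rose and 6 were not called. Of all genes tested, 0.128% were called higher. The median change was 0.25 over the 11 (0.47 without PB mouse 3). The genes of the main cluster were put in a row by position on chromosome 19, and not every one of the 11 tested genes is in this row. The raised ones sat toward the ends of the row: Cyp2c55 and Cyp2c65 at one end and Cyp2c37, Cyp2c54 and Cyp2c50 toward the other. The genes tested in between were Cyp2c29, Cyp2c39, Cyp2c38 and Cyp2c68, with changes of 0.25, -0.44, -0.37 and -0.19, none of them called. Without PB mouse 3 Cyp2c39 and Cyp2c38 differed by -0.25 and -0.07. Cyp2c70, next to Cyp2c50, was not called either (0.15 ± 0.13). The windows before Cyp2c55, Cyp2c37 and Cyp2c50 are shown because these genes rose by very different amounts, from RefSeq on GRCm38.p6, plus strand, marked as for Cyp2b.
Cyp2c55 (chr19:39006769-39007018): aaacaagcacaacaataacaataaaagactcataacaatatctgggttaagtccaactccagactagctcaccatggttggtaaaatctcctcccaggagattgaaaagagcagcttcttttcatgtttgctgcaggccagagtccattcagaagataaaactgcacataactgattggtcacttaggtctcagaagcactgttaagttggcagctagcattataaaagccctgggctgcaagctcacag
Cyp2c37 (chr19:39992174-39992423): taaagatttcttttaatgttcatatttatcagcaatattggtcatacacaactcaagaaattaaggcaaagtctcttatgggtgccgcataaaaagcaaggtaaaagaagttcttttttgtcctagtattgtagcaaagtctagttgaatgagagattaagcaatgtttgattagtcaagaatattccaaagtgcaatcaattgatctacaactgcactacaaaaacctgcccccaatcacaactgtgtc
Cyp2c50 (chr19:40089429-40089678): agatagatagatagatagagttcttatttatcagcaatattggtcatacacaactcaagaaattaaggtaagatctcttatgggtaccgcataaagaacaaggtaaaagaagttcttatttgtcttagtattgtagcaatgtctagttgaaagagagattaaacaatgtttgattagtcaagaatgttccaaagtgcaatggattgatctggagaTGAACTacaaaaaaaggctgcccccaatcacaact

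The windows of Cyp2c37 and Cyp2c50 were identical at 215 of 245 aligned bases (87.8%), and that of Cyp2c55 was 67.9% identical to Cyp2c37. Cyp2c55, an enzyme better known from the intestine, read 7.05, 6.97, 6.09, 6.35 and 6.10 in the vehicle mice and 11.20, 11.34, 11.83, 12.09 and 11.99 in the PB mice. The treated livers lay close together and far above the vehicle livers, and the mean rose by 5.18 ± 0.25 or 36.3-fold, with the smallest adjusted p of all genes (1.05e-06). Its neighbour Cyp2c65 read 3.64, 4.04, 3.80, 3.74 and 3.90 in the vehicle mice, near background, and 6.07, 6.48, 7.50, 6.98 and 5.23 in the PB mice. The difference was 2.63 ± 0.33 (adjusted p = 0.0051), with PB mouse 3 the highest; its single probe set is of the _s_at kind, which can detect several similar transcripts.

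Cyp2c37 read 6.67, 7.07, 6.57, 6.92 and 6.48 in the vehicle mice against 8.56, 8.70, 7.84, 8.88 and 9.30 in the PB mice and rose by 1.91 ± 0.24 (adjusted p = 0.0051). Cyp2c54 read 12.003, 11.998, 11.89, 11.16 and 11.41 against 13.81, 13.82, 13.28, 13.84 and 13.80 and rose by 2.02 ± 0.18 (adjusted p = 0.000221). Cyp2c50 read 12.86, 13.04, 12.71, 12.37 and 12.64 against 13.74, 13.74, 13.27, 13.87 and 14.00 and rose by 1.001 ± 0.15 (adjusted p = 0.0177). PB mouse 3 was the lowest treated liver for all 3, and for all 3 the groups did not overlap. Cyp2c29, an abundant hepatic P450 and a known target of CAR, read 13.89 ± 0.18 and 14.14 ± 0.16, with overlapping groups and a difference of 0.25 ± 0.10 (adjusted p = 0.694). Its signal lay near the top of the array's range, where differences can be compressed, and whether that held for Cyp2c29 was not tested. Cyp2c50, with PB values up to 14.00, was called.

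**Figure D2:**
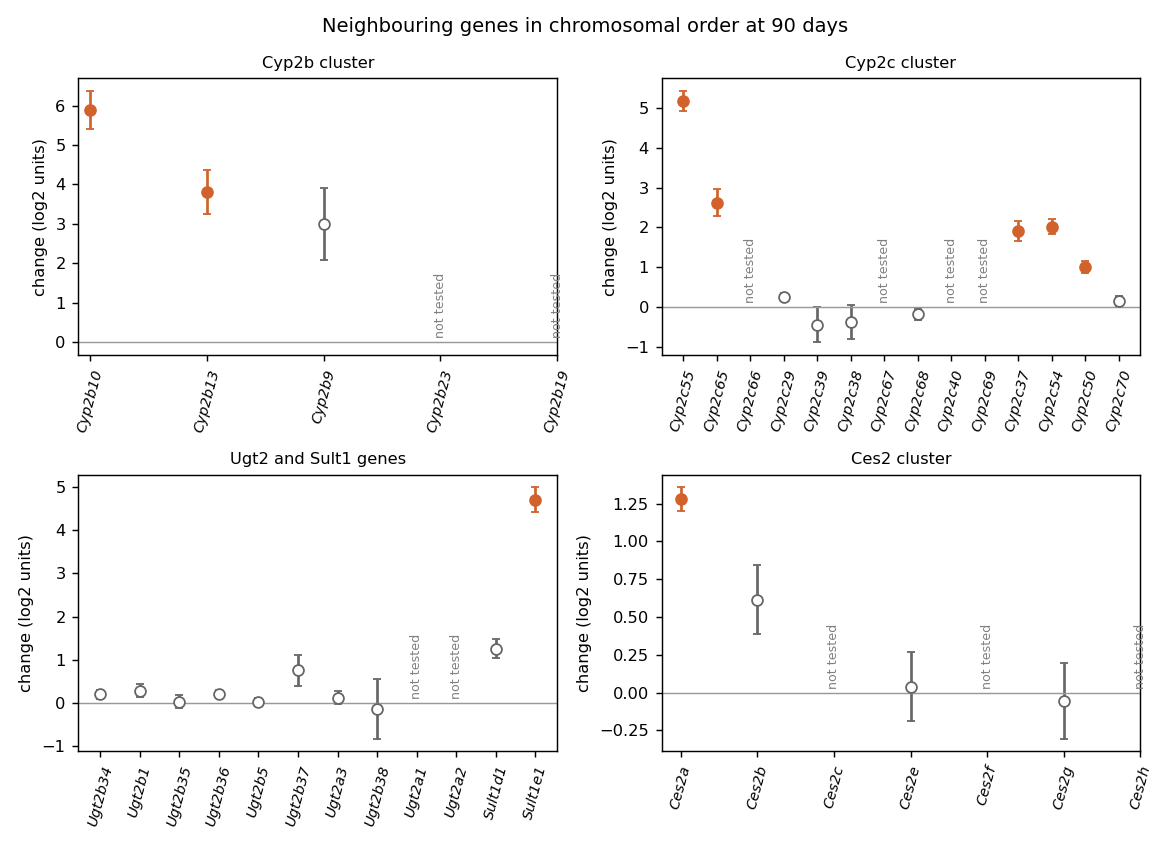
Change ± SE in log2 units at 90 days is plotted for the genes of 4 clusters in their chromosomal order, with filled points for called genes, open points for genes tested and not called, and the words not tested for the rest. Raised genes sit toward both ends of the Cyp2c row, at the start of the Cyp2b and Ces2 rows, and at the end of the row of chromosome 5. There Sult1e1 was called, and Sult1d1, placed before it, was not. The rows hold only protein-coding genes of the named families, so genes of other families in between are not shown.

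Among the remaining P450 genes none was called. The Cyp3a enzymes, targets of the pregnane X receptor and the main drug oxidases of liver, had 4 genes tested, with a median of 0.35. Cyp3a11 read 14.70 ± 0.08 and 14.86 ± 0.06 with a difference of 0.16 ± 0.06 near the top of the range, Cyp3a13 differed by 0.91 ± 0.35, Cyp3a44 by 0.54 ± 0.20 and Cyp3a25 by -0.31 ± 0.10 (adjusted p = 0.694 for each). In the Cyp2d subfamily (8 tested, median 0.11, and 0.20 without PB mouse 3) Cyp2d12 read 5.60, 6.15, 5.50, 5.54 and 5.91 in the vehicle mice and 8.78, 8.32, 6.46, 7.22 and 7.35 in the PB mice. All treated livers lay above the vehicle livers for Cyp2d12, but the difference of 1.89 ± 0.36 missed the threshold (adjusted p = 0.132; 2.18 and adjusted p = 0.0061 without PB mouse 3). Cyp1a2, an oxidase of aromatic amines, differed by 0.30 ± 0.26 (adjusted p = 0.718), and Cyp2e1, an oxidase of ethanol and small solvents, by -0.08 ± 0.07 (adjusted p = 0.723). Among the Cyp4 fatty acid hydroxylases 0 of 11 were called, 4 of 11 had changes above 0 and the median was -0.10; without PB mouse 3 the median was 0.033, with 6 of 11 above 0.

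Cytosolic sulfotransferases transfer sulfate to steroids, phenols and drugs. All 8 genes tested had changes above 0, with a median of 0.46, and 1 was called. Of all genes tested, 55.6% had changes above 0 and 0.128% were called higher. Sult1e1, which inactivates oestrogens, read 3.996, 4.05, 3.83, 4.05 and 3.96 in the vehicle mice, at background, and 7.71, 8.80, 8.30, 9.71 and 8.93 in the PB mice. The vehicle livers were nearly flat and the treated livers were all far above them, a rise of 4.71 ± 0.29 or 26.2-fold (adjusted p = 4.01e-06). Its neighbour on chromosome 5, Sult1d1, which acts on catecholamines, read 10.67, 10.80, 10.93, 10.53 and 10.12 in the vehicle mice and 11.94, 11.28, 12.36, 12.13 and 11.61 in the PB mice. The groups did not overlap and the difference was 1.25 ± 0.21, just outside the threshold (adjusted p = 0.0501). That outcome rests on the probe set used. The other probe set of Sult1d1 differed by 1.63 (adjusted p = 0.0174 in limma with probe sets tested singly). With the mean of its probe sets Sult1d1 was called (1.44, adjusted p = 0.0185 in limma). Sult1c2 differed by 1.58 ± 0.33 (adjusted p = 0.225) and Sult1a1, the main phenol sulfotransferase, by 0.43 ± 0.18 (adjusted p = 0.694). The window before Sult1e1, from RefSeq on GRCm38.p6, minus strand, is shown because its vehicle level was at background; the capitals mark the hexamer AGGTCA as read on the opposite strand.
Sult1e1 (chr5:87591612-87591861): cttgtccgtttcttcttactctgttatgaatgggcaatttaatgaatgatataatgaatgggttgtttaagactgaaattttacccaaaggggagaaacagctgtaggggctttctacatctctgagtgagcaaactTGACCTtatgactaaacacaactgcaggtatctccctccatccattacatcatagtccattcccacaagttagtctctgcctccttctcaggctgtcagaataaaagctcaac

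The 8 measured Ugt2 genes that precede Sult1d1 in this row encode enzymes that attach glucuronate to drugs, bile acids and steroids, and none was called; the largest difference was that of Ugt2b37 (0.75 ± 0.37, adjusted p = 0.694). Over all 10 UDP-glucuronosyltransferases tested the median was 0.07 (0.014 without PB mouse 3). Ugt1a1 was not tested, since its probe sets are shared with other Ugt1a genes. The enzymes that supply the donor molecules were not called either, with 8 tested and a median of -0.34 (-0.17 without PB mouse 3); Ugdh, which makes UDP-glucuronate, differed by -0.24 ± 0.11 and Ugp2, which makes UDP-glucose, by 0.42 ± 0.17 (adjusted p = 0.694 for both).

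Glutathione transferases, which couple glutathione to reactive compounds, had no called gene among those with a probe set of 1 symbol. The alpha class had 3 of 3 changes above 0 (median 0.45), the mu class 6 of 7 (median 0.23), and the theta, pi and other cytosolic classes 5 of 9 (median 0.04). Without PB mouse 3 the last 2 medians were 0.43 and -0.06. Gstm3 read 11.66, 11.50, 10.83, 10.02 and 11.11 in the vehicle mice and 12.33, 13.11, 11.64, 12.73 and 12.85 in the PB mice. PB mouse 3 lay at the top of the vehicle range and the other 4 above it, with a difference of 1.51 ± 0.33 (adjusted p = 0.246; 1.73 and adjusted p = 0.035 without PB mouse 3). Gstt3 read 9.21, 9.79, 9.87, 9.12 and 8.13 in the vehicle mice and 10.77, 11.07, 10.01, 10.66 and 10.78 in the PB mice, without overlap and with a difference of 1.43 ± 0.31 (adjusted p = 0.247). Gstt1 differed by 0.77 ± 0.18 (adjusted p = 0.335), and Gsta2, an alpha-class target of CAR and of the oxidant sensor NRF2, by 0.66 ± 0.17 (adjusted p = 0.553).

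Among 12 carboxylesterases, which cleave ester drugs and lipids, 1 was called and 9 had changes above 0 (median 0.13). The shares over all genes tested were 0.128% called higher and 55.6% above 0. Ces2a read 12.66, 12.53, 12.63, 12.46 and 12.54 in the vehicle mice and 13.86, 13.86, 13.74, 13.91 and 13.86 in the PB mice. The livers of a group lay very close together, and the mean rose by 1.28 ± 0.08 or 2.43-fold (adjusted p = 4.01e-06). Its neighbour Ces2b, near background in the vehicle mice, differed by 0.62 ± 0.23, and Ces1d by 0.56 ± 0.22 (adjusted p = 0.694 for both). Of the genes with a probe set of 1 symbol, none was called among 18 aldehyde dehydrogenases (median 0.00), 15 aldo-keto reductases (median 0.09), 9 epoxide hydrolases, quinone and carbonyl reductases (median 0.24) or 42 ABC transporters (median -0.07). Without PB mouse 3 these medians were -0.02, -0.0027, 0.13 and -0.02. Aldh1a7, an aldehyde dehydrogenase, differed by 0.37 ± 0.11 and Ephx1, the microsomal epoxide hydrolase, by 0.24 ± 0.12 (adjusted p = 0.694 for both). Abcc4, which exports conjugates and bile acids across the sinusoidal membrane, read 6.42, 5.75, 5.73, 5.35 and 5.45 in the vehicle mice and 7.84, 7.73, 6.20, 7.13 and 7.30 in the PB mice. PB mouse 3 lay inside the vehicle range for Abcc4 and the other 4 above it, with a difference of 1.50 ± 0.30 (adjusted p = 0.147; 1.76 and adjusted p = 0.0038 without PB mouse 3).

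**Figure D3:**
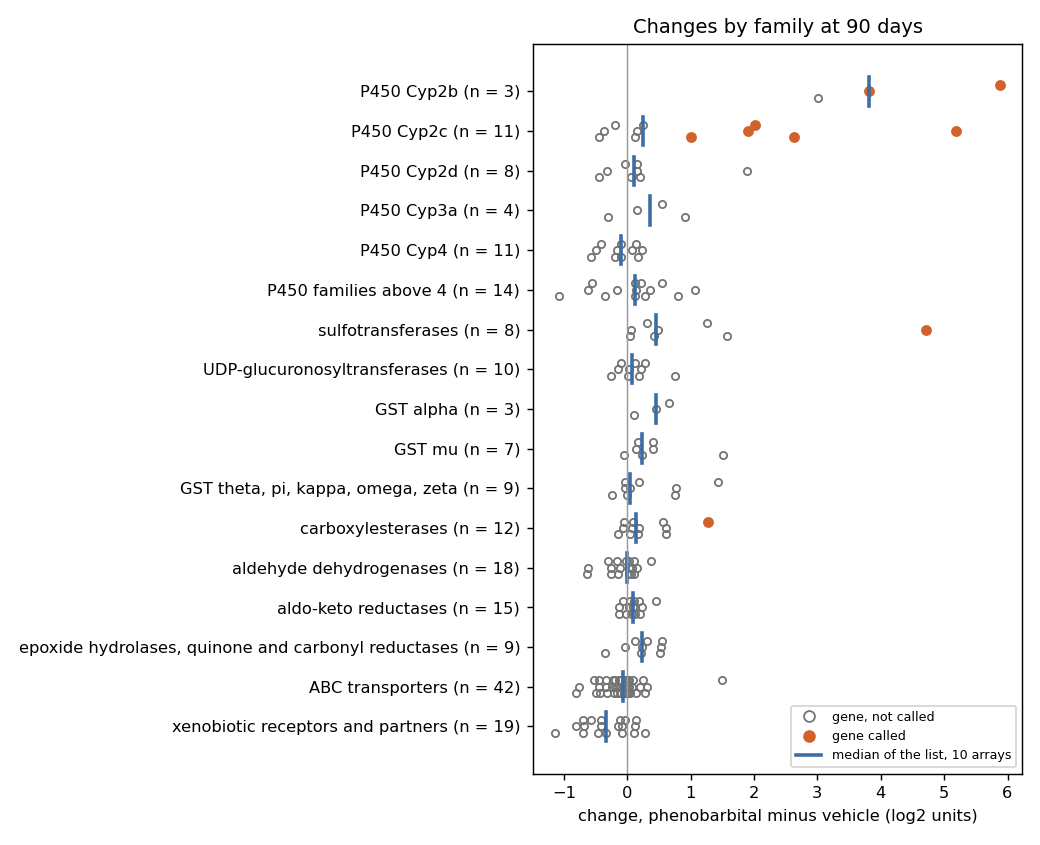
Each point is the change at 90 days (PB minus CMC, log2 units) of 1 gene in 17 families, filled where the gene was called; the blue bar is the median of the family. Called genes stand only in the rows of Cyp2b, Cyp2c, sulfotransferases and carboxylesterases, and most medians lie between -0.34 and 0.46, with Cyp2b at 3.82.

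The receptors, their partners and the systems that serve the P450 enzymes had no called member. Over 19 xenobiotic receptors and partners the median was -0.34 with 4 changes above 0, and -0.09 without PB mouse 3. Nr1i3, which encodes CAR itself, read 9.61 ± 0.20 and 9.73 ± 0.39 (0.12 ± 0.20, adjusted p = 0.837), and Nr1i2, which encodes the pregnane X receptor, differed by -0.14 ± 0.15 (adjusted p = 0.755). Egfr, which encodes the epidermal growth factor receptor, read 12.48, 12.04, 12.65, 12.18 and 11.42 in the vehicle mice and 11.74, 11.57, 8.98, 11.07 and 11.70 in the PB mice. The difference of -1.14 ± 0.46 (adjusted p = 0.694) was -0.63 without PB mouse 3, which was by far the lowest, and -0.37 with the mean of the gene's probe sets. Of the proteins that bring electrons to the P450 enzymes, cytochrome b5 (Cyb5a) differed by 0.21 ± 0.06 without overlap (adjusted p = 0.694). Alas1, which catalyses the first step of heme synthesis, ranged from 7.50 to 11.92 in the vehicle mice and from 7.16 to 10.71 in the PB mice (-0.77 ± 0.83, adjusted p = 0.763). The heme list as a whole had 16 genes tested and a median of 0.02 (-0.03 without PB mouse 3).

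Of the 11 raised genes outside drug metabolism, the largest increase was that of Nebl, the gene of nebulette, a protein that binds actin filaments. It read 3.86, 3.89, 3.90, 4.38 and 3.99 in the vehicle mice, at background, and 7.86, 7.99, 8.09, 7.86 and 6.88 in the PB mice. All treated livers lay far above the vehicle livers (3.73 ± 0.21, adjusted p = 3.58e-06), with PB mouse 5 the lowest. The value rests on 1 of 3 probe sets, since the other 2 did not pass the filter when probe sets were tested singly. With the mean of all 3 the change of Nebl was 1.42, below those of Orm3 (2.45), Gm10419 (2.41) and Serpinb1a (2.30) under the same rule. Serpinb1a, an inhibitor of neutrophil proteases, read 5.91, 7.40, 5.41, 5.93 and 5.23 in the vehicle mice and 9.52, 7.40, 9.19, 9.24 and 8.82 in the PB mice. Mouse 2 of each group stood at 7.40, so the groups were barely apart, and the mean rose by 2.86 ± 0.45 (adjusted p = 0.0247).

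Several of these genes encode secreted liver proteins. Orm3, one of the alpha-1-acid glycoproteins that bind drugs in plasma, read 5.65, 5.83, 6.37, 6.61 and 6.28 in the vehicle mice and 8.34, 8.04, 8.99, 9.11 and 8.50 in the PB mice. Without overlap, Orm3 rose by 2.45 ± 0.24 (adjusted p = 0.000612), while Orm1 differed by -0.03 ± 0.16 (adjusted p = 0.954) and Orm2 by 1.03 ± 0.53 (adjusted p = 0.694). Lect2, a secreted hepatokine and a target of beta-catenin in pericentral hepatocytes, read 11.08, 11.43, 11.43, 11.09 and 11.36 against 12.12, 12.01, 12.30, 12.21 and 11.95. It rose by 0.84 ± 0.12 (adjusted p = 0.0158, and 0.562 in a fit of all 20 arrays), and the groups lay apart. Pnliprp1, a lipase-related protein of the pancreas, rose by 1.01 ± 0.16 from a vehicle level near background (adjusted p = 0.0269), while 4 exocrine pancreas markers had changes of 0.08 to 0.30 and none was called.

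The remaining raised genes are less well characterised in liver. Lrrc24, which encodes a leucine-rich repeat protein, rose by 1.39 ± 0.21 (adjusted p = 0.0177) and Meig1, known from spermatogenesis, by 1.67 ± 0.22 (adjusted p = 0.00607). The transcripts Gm10419, 9030619P08Rik and 4931406C07Rik rose by 2.41 ± 0.31, 1.98 ± 0.23 and 1.04 ± 0.13 (adjusted p = 0.00607, 0.00314 and 0.0051). Wdr18 rose by 1.31 ± 0.21 (adjusted p = 0.0318) on the 1 of its probe sets that was used, of the _x_at kind. Wdr18 differed by 0.05 and 0.03 on 2 others, and its adjusted p was 0.71 with the mean of its probe sets.

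Csad was the only called gene that fell. It encodes cysteine sulfinic acid decarboxylase, which makes the precursor of taurine, the amino acid that is joined to bile acids. It read 12.53, 12.28, 11.72, 11.82 and 12.55 in the vehicle mice and 11.05, 11.07, 10.55, 10.22 and 10.20 in the PB mice. All treated livers lay below all vehicle livers, a difference of -1.56 ± 0.23 (adjusted p = 0.0162, and 0.149 in a fit of all 20 arrays). Suox, which encodes sulfite oxidase, differed by -0.66 ± 0.19 without overlap (adjusted p = 0.694).

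The other largest differences toward lower values without overlap were those of Dnase2a, a lysosomal nuclease (-1.07 ± 0.24, adjusted p = 0.327), Hmgn5 (-1.02 ± 0.42), Trak2 (-0.89 ± 0.32), Phf8 (-0.88 ± 0.24), Irgm1 (-0.77 ± 0.22), Igtp (-0.76 ± 0.17, adjusted p = 0.247), Ivns1abp (-0.67 ± 0.19) and Hnrnpm (-0.63 ± 0.18). The adjusted p was 0.694 for those without a value. Irgm1 and Igtp are interferon-inducible GTPases; 18 interferon-stimulated genes had 0 calls and a median of -0.07. For Hmgn5, PB mouse 3 read 7.12 against 8.78 to 9.79 in the other treated livers, and the difference without it was -0.56. Trak2 differed by -0.58 without PB mouse 3, and Igtp by -0.76. Other probe sets of the same genes differed less or the other way, at 0.28 for Trak2, 0.10 and 0.14 for Phf8, and -0.07 and -0.47 for Ivns1abp; with the mean of all probe sets the differences were -0.31, -0.21 and -0.40.

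Genes of fatty acid oxidation had small differences, most of them toward lower values. Of 20 genes tested, targets of PPAR alpha among them, 17 had changes below 0, while 55.6% of all genes tested had changes above 0. None was called, and the median was -0.35 against 0.03 for all genes. In 3 of the 20 the groups did not overlap, all lower, against 0.442% of all genes tested on that side. Acadvl, the very long chain acyl-CoA dehydrogenase of mitochondria, read 12.23, 12.22, 12.23, 12.21 and 12.21 in the vehicle mice and 11.95, 12.01, 11.59, 11.75 and 11.99 in the PB mice. The vehicle livers lay very close together and every treated liver lay below them (-0.36 ± 0.11, adjusted p = 0.694). Hadha and Hadhb, the subunits of the mitochondrial trifunctional protein, differed by -0.40 ± 0.15 and -0.37 ± 0.12, and Cpt2, which releases acyl groups in the matrix, by -0.77 ± 0.26 (adjusted p = 0.694 for each). Outside the list, the peroxisomal genes Hsd17b4, Abcd3 and Lonp2 differed by -0.56 ± 0.16, -0.44 ± 0.16 and -0.42 ± 0.11, all without overlap (adjusted p = 0.694 for each), and were picked as examples with their values known. Without PB mouse 3 the list's median was -0.23.

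Genes of protein folding in the endoplasmic reticulum had the lowest median of the pathway lists, -0.45, with 25 of 28 changes below 0 and no call. In 2 of the 28 the groups did not overlap, both lower, against 0.442% of all genes tested on that side. Xbp1, a transcription factor of the unfolded protein response, read 12.63, 12.73, 12.90, 13.02 and 12.88 in the vehicle mice and 12.53, 12.58, 11.71, 12.10 and 12.25 in the PB mice. The groups touched without overlapping (-0.60 ± 0.16, adjusted p = 0.636). Hspa5, the main chaperone of this compartment, read 13.55, 13.07, 13.12, 14.40 and 14.22 in the vehicle mice and 13.11 to 13.43 in the PB mice (-0.41 ± 0.24, adjusted p = 0.694). Vehicle mice 4 and 5 were the highest of the 10 livers for Hspa5, and also for Syvn1, a ubiquitin ligase that clears misfolded proteins (11.80 and 11.17 against 9.58 to 9.69 in the other vehicle mice). Without these vehicle mice Hspa5 differed by 0.02 and the median of the list was -0.12, and without PB mouse 3 it was -0.42.

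The same vehicle mice were highest for Gadd45g, a growth arrest and stress gene, which read 9.99 and 10.17 in them and 6.60 to 7.21 in the other vehicle mice, against 6.37 to 8.28 in the PB mice. They were also highest for Socs3, an inhibitor of cytokine signalling (9.20 and 9.62 against 6.53 to 7.81), and for Pfkfb3, a regulator of glycolysis (7.26 and 7.78 against 4.78 to 6.22). In the PB mice Socs3 stayed between 6.08 and 7.09 and Pfkfb3 between 4.82 and 5.26. The differences were -1.47 ± 0.54 for Socs3, -1.26 ± 0.47 for Pfkfb3 and -1.11 ± 0.71 for Gadd45g, none of them called (adjusted p = 0.694, 0.694 and 0.697), and without both vehicle mice they were -0.52, -0.42 and 0.18. A second probe set of Pfkfb3 differed by -0.03, and the probe set of Socs3 that is not of the _x_at kind by -0.55.

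Cholesterol synthesis and uptake had 21 genes tested, 19 of them with changes below 0, none called and a median of -0.32, which was -0.31 without PB mouse 3 and -0.40 without vehicle mice 4 and 5. Hmgcs1, which makes the HMG-CoA that enters the pathway, read 13.51, 13.46, 13.58, 13.27 and 13.19 in the vehicle mice and 12.51, 13.18, 12.73, 12.37 and 13.26 in the PB mice. Apart from PB mouse 5 the treated livers lay below all vehicle livers (-0.59 ± 0.17, adjusted p = 0.694). Sqle, the squalene epoxidase, differed by -0.70 ± 0.26 and Hsd17b7 by -0.63 ± 0.25 (adjusted p = 0.694 for both). Cyp7a1, which starts bile acid synthesis from cholesterol, ranged from 9.82 to 12.45 in the vehicle mice and from 9.06 to 11.14 in the PB mice (-1.07 ± 0.50, adjusted p = 0.694). Lipogenesis (22 tested, median -0.26), gluconeogenesis and glycolysis (20, -0.22) and complement and coagulation (29, -0.16) had no call either; without PB mouse 3 these medians were -0.11, -0.08 and -0.05.

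**Figure D4:**
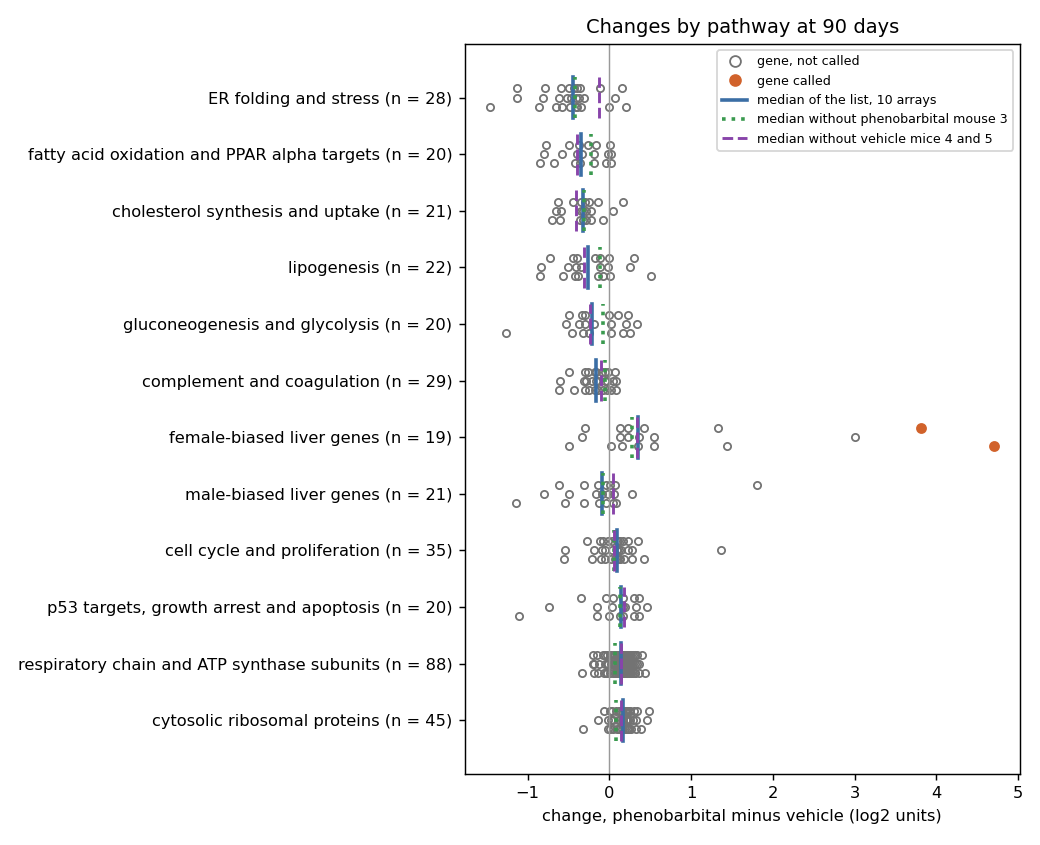
Each point is the change of 1 gene at 90 days (PB minus CMC, log2 units) in 12 lists; bars give the median over 10 arrays (solid), without PB mouse 3 (dotted) and without vehicle mice 4 and 5 (dashed). The ER folding median moves from -0.45 to -0.12 without the 2 vehicle mice, the cholesterol median stays between -0.40 and -0.31, and the only called genes are Cyp2b13 and Sult1e1 among the female-biased genes.

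Liver genes that differ between the sexes in mice were grouped by the sex in which they are higher. Of 19 genes known to be higher in female liver, 16 had changes above 0, against 55.6% of all genes tested. Their median was 0.34 (0.28 without PB mouse 3). Of the 19, 2 were called higher, against 0.128% of all genes tested. These were Sult1e1 and Cyp2b13, which the P450 and sulfotransferase families also hold. Prom1, which encodes the membrane protein prominin 1, read 4.92, 4.48, 4.39, 4.52 and 5.44 in the vehicle mice and 6.96, 6.02, 5.24, 6.03 and 6.12 in the PB mice. Only PB mouse 3 lay within the vehicle range of Prom1, and the difference of 1.32 ± 0.28 missed the threshold (adjusted p = 0.239; 1.53 and adjusted p = 0.028 without it). Of 21 genes known to be higher in male liver, 7 had changes above 0, none was called and the median was -0.10; without vehicle mice 4 and 5 the median was 0.044, with 13 of 21 above 0.

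Proteins of the acute phase (27 tested, median -0.14, and -0.09 without PB mouse 3) were called only for Orm3, described above. Saa2, which encodes serum amyloid A2, read 9.06, 8.57, 13.54, 13.54 and 8.22 in the vehicle mice and 8.34 to 9.65 in the PB mice. Vehicle mice 3 and 4 were far above the other 8 livers, and the difference of -1.60 ± 1.01 was not called (adjusted p = 0.694). The metallothioneins Mt1 and Mt2, which bind zinc and copper, had large differences of 2.41 ± 0.77 and 2.51 ± 0.69 that were not called (adjusted p = 0.694 for both). Another probe set of Mt1 differed by 1.09, and the mean of its probe sets by 1.75. Without vehicle mice 4 and 5 the differences of Mt1 and Mt2 were 1.53 and 1.78. Mt2 read 7.69, 9.40, 11.63, 7.70 and 7.83 in the vehicle mice and 11.15, 10.16, 11.43, 11.88 and 12.18 in the PB mice. All treated livers were high for Mt2, and vehicle mouse 3 was as high as they were.

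The largest difference of all genes was that of S100a8, a calcium-binding protein that neutrophils hold in large amounts together with its partner S100a9. S100a8 read 5.64, 5.01, 4.99, 5.08 and 5.25 in the vehicle mice and 13.21, 12.76, 12.97, 13.03 and 5.42 in the PB mice. The treated livers stood far above all vehicle livers except that of PB mouse 5, which read within the vehicle range, and the difference of 6.28 ± 1.23 was not called (adjusted p = 0.147). S100a9 read 5.66 ± 0.34 and 5.66 ± 0.49, a difference of -0.01 ± 0.23 (adjusted p = 0.992). The other 6 neutrophil markers tested had changes from -0.09 to 0.22, the highest that of Ngp, and none was called. The S100a8 probe set is of the _s_at kind, and which transcripts it detects was not tested.

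Genes of growth and tumours had no call and small list medians. Of 35 cell cycle genes tested none was called, 23 had changes above 0 and the median was 0.09 (0.052 without PB mouse 3). Mki67, a marker of dividing cells, differed by 0.11 ± 0.12 (adjusted p = 0.755) and Ccnd1, cyclin D1, by -0.27 ± 0.17 (adjusted p = 0.694). Other probe sets of Ccnd1 differed by -0.65 and -0.81, and the mean of its probe sets by -0.58, none of them called. Nsl1, part of the kinetochore, had the largest change of the cell cycle list, with 6.68, 5.98, 5.82, 5.45 and 6.56 in the vehicle mice and 7.41, 6.77, 7.99, 7.72 and 7.40 in the PB mice. The groups lay just apart for Nsl1 and the difference of 1.36 ± 0.27 was not called (adjusted p = 0.147), and was 0.67 with the mean of its probe sets. Gadd45b, a stress gene whose protein binds CAR, differed by 0.46 ± 0.26 (adjusted p = 0.694), and p53 targets and related genes had 0 of 20 called (median 0.15). Meg3, a non-coding RNA of the imprinted Dlk1-Dio3 region, read 7.18 to 9.45 in the vehicle mice and 7.46 to 10.62 in the PB mice. PB mouse 3 was the lowest of the treated (0.92 ± 0.53, adjusted p = 0.694, and 1.39 without it). The mean of the probe sets of Meg3 differed by 0.49. Genes known from liver tumours and fetal liver had 0 of 21 called (median 0.09, and 0.041 without PB mouse 3), and Glul, a marker of beta-catenin activity in pericentral hepatocytes, differed by -0.27 ± 0.20 (adjusted p = 0.701).

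Of 88 subunits of the respiratory chain and ATP synthase, 71 had changes above 0 with a median of 0.15, and of 45 cytosolic ribosomal proteins 40 had, with a median of 0.17, against 55.6% and 0.03 for all genes; none was called. Without PB mouse 3 these medians were 0.07 and 0.08.

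Markers of other cell types gave no called gene. Kupffer cell markers had the lowest median of these lists, -0.30 over 8 genes, with Marco at -0.56 ± 0.23 and Cd5l at -0.59 ± 0.33 (adjusted p = 0.694 for both). A second probe set of Marco differed by 0.04, and without vehicle mice 4 and 5 the median of the list was -0.15, with 3 of 8 above 0. The mean level of the 8 ranged from 6.91 to 8.26 in the vehicle mice and from 6.89 to 7.82 in the PB mice. Of 8 stellate and fibroblast markers, Col3a1, a fibrillar collagen, differed by 0.88 ± 0.26 (adjusted p = 0.694) and the median was 0.10. Lymphocyte, endothelial and cholangiocyte markers had medians of 0.17, 0.15 and 0.03, which were 0.10, 0.12 and 0.0047 without PB mouse 3. Albumin (Alb), the defining product of hepatocytes, read 15.17 ± 0.03 and 15.11 ± 0.05.

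The 28-day groups were used to ask whether the 90-day effects differ from those after the shorter treatment. In a fit of all 20 arrays, the difference between the 90-day and 28-day effects was called for 0 of 16054 genes, 0% (limma; 221 at an unadjusted p under 0.05, 1.38%). PB mouse 5 of 28 days stood farthest from the other arrays, with a first principal component score of -107.9; without it 755 genes had an unadjusted p under 0.05, and still 0 were called, with a smallest adjusted p of 0.085. Over the removals of 1 array the smallest adjusted p ranged from 0.057 to 0.976, with 0 calls in each. The smallest p was that of Sult1e1, whose change was 1.90 ± 0.36 at 28 days and 4.71 ± 0.36 at 90 days in that fit, a difference of 2.81 ± 0.51 (adjusted p = 0.337 in limma). Next by p came 4833438C02Rik (0.67 ± 0.16) and Nap1l3 (1.01 ± 0.26; adjusted p = 1 for both); Nap1l3 passed the filter on dim genes only over the 20 arrays. The changes of Lrrc24 were 0.30 and 1.39 (difference 1.09 ± 0.31, adjusted p = 1), those of Orm3 1.19 and 2.45 (1.26 ± 0.45) and those of Nebl 2.41 and 3.73 (1.32 ± 0.59). Cyp2b10 changed by 4.90 and 5.88 (difference 0.99 ± 0.88), and Cyp2c55 by 5.35 and 5.18 (-0.17 ± 0.42). Csad was at -1.43 at 28 days, where it was not called (adjusted p = 0.47).

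**Figure D5:**
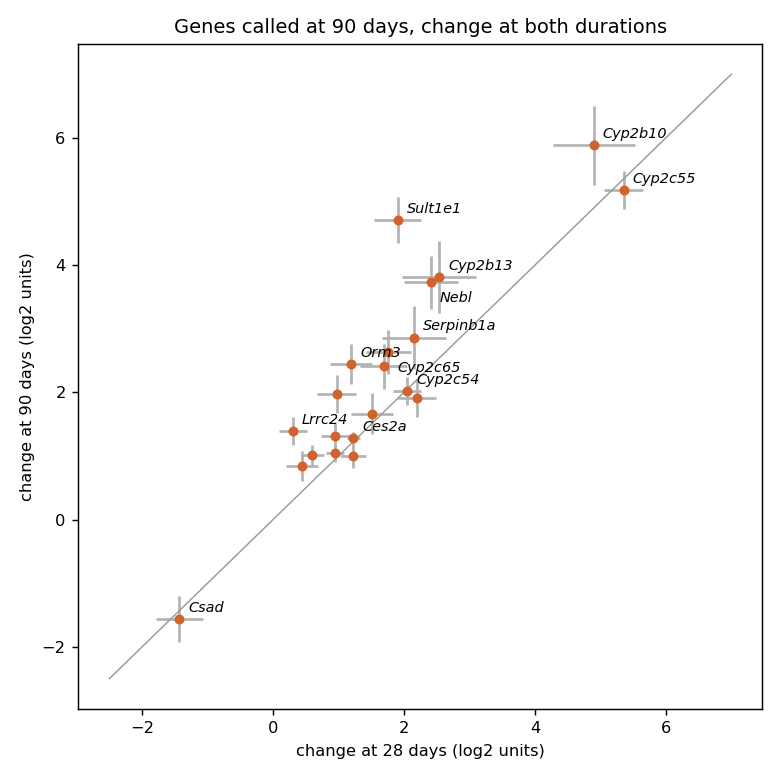
The changes of the 21 genes called at 90 days are plotted at 28 days (horizontal) and at 90 days (vertical), both ± SE from the fit of all 20 arrays, in log2 units; the line marks equal changes. Sult1e1 lies farthest above the line, at 1.90 and 4.71, and Cyp2c55 and Ces2a lie close to it; no departure from the line passed the adjusted test.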

How the data were processed

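Total RNA of mouse liver was measured on 20 Affymetrix arrays. The authors deposited log2 intensities made with RMA, per the submitters' processing notes; its version and the genome build are not given in the sources used here. Of 45037 probe sets, 34945 had 1 gene symbol, 932 several and 9160 none in the platform annotation. Each of 18193 genes was represented by the probe set with the highest mean over all arrays, and genes above the array's 25th percentile on at least 5 arrays of a fit were tested. The arrays titled PB and CMC at 90 days were compared in limma 3.58.1 (R 4.3.3; lmFit, eBayes with an intensity trend, Benjamini-Hochberg adjustment), without covariates; the difference between durations was a contrast over 20 arrays. The code was tested on simulated data. Figures were drawn with matplotlib 3.10.9.

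The genes and lists were chosen with earlier results of these data known. Named are all called genes, the 10 largest increases and decreases without overlap, up to 3 genes per list with the smallest p, the smallest p between durations, and a set of known phenobarbital targets; others are examples chosen after their values were seen. The alternatives changed the filter, probe sets, scaling, variance prior, weights, covariates and arrays used. With the group mean of each gene removed, same-numbered arrays had correlations of -0.23 to 0.36, and they were not treated as pairs.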

Additional observations from a re-analysis of the deposited data

Results flagged for a closer look

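In each group of 5 livers, 1 value can lie far from the other 4, which chance gives in about 1 in 20 groups. For genes named in the text 200 groups were checked and 15 held such a value, so many of these can be chance. They were the following. PB mouse 3 was far below the other treated livers for Cyp2b10 at 10.54, Cyp2c54 at 13.28, Egfr at 8.98, Cyp2e1 at 14.38 and Nr1i2 at 6.57. PB mouse 5 was far below them for S100a8 at 5.42 and Nebl at 6.88, and far above them for Ccnd1 at 7.50, while PB mouse 2 was low for Ces1d at 12.08. Of the vehicle mice, mouse 1 was high for Cyp2b10 at 7.76 and for Abcd3 at 13.47, mouse 3 was high for Ugp2 at 12.81 and mouse 4 for Nebl at 4.38. Vehicle mouse 2 was low for Hadhb at 11.48 and vehicle mouse 5 for Alb at 15.12.

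Probe sets without a single gene symbol were left out of the report. When all 34092 probe sets above the filter were tested singly in limma, 24 were called, and 3 of these had no single symbol: 1423556_at rose by 1.98, 1448754_at by 2.29 and 1421041_s_at by 1.14 on the log2 scale. These 3 were placed in no family. The statements that a family had no called gene therefore do not cover them.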

How the results depend on the processing

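The count of 21 called genes was 19 to 24 under other filters, probe set rules, scalings, priors and array weights, in the fit of 20 arrays and with probe sets tested singly. Leaving out 1 array gave 13 (without PB mouse 4) to 26 (without PB mouse 3) genes, and leaving out vehicle mice 4 and 5 together, chosen after seeing the data, gave 7. With the first principal component of the 10 arrays as a covariate the count was 968 when the group means were removed first. That component is independent of group by construction, so every change stayed the same and only the error of the fit differed. It was computed from the same residuals, which makes that error too small, so the 968 are not read as calls. With the group means kept, a choice made after seeing the data, the count was 32. The difference between durations had 0 calls under every alternative run for it. With the replicate number as a block (replicate block) 14 genes were called at 90 days. With the group mean of each gene removed, 1 of the 5 vehicle arrays correlated best with the PB array of its own number. So few correlations cannot tell whether the numbers pair the livers.

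Centring arrays on the 75th percentile moved the medians of heme genes to 0.11, cell cycle genes to 0.19, p53 targets to 0.24, tumour and fetal genes to 0.18 and aldehyde dehydrogenases to 0.094, and turned the small differences of Cyp2e1 to 0.014, S100a9 to 0.086, Alb to 0.040 and Orm1 to 0.063. The aldehyde dehydrogenase median was -0.12 with the filter at the 50th percentile, and that of Cyp3a was 0.16 without a filter. Array weights turned Cyp2c38 to 0.062 and Cyp2c39 to 0.0041. Without vehicle mice 4 and 5, Gadd45g stood at 0.18, Alas1 at 0.061, Hspa5 at 0.017, Orm1 at 0.097 and Nr1i3 at -0.012; with the principal component and group means kept Nr1i3 stood at -0.058. Leaving out 1 array moved S100a9 between -0.16 and 0.14 and Orm1 between -0.14 and 0.066. None of these genes was called in the 10-array fit. Levels near background limit the size of the change of Meig1, Nebl, Sult1e1, Cyp2c65 and Pnliprp1.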
